A study of Homo sapiens with 15 samples.

Results

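Bidirectional promoters marked by H3K4me3 were compared between the breast cancer cell line MDA-MB-231 and its metastatic sub-populations. They were taken from the 22572 H3K4me3 consensus peaks as the peaks shorter than 4000 bp that hold transcript starts of protein-coding genes on both strands and overlap a peak of H3K27ac. The rule was met by 1316 peaks, which hold starts of 2659 genes on 23 chromosomes. Of these peaks, 1208 hold starts of 2 genes, 99 of 3 genes and 9 of 4 genes. Before the H3K27ac overlap was asked for, 1327 peaks met the length and strand criteria, so that nearly every short H3K4me3 peak with starts on both strands also carried H3K27ac.

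MDA-MB-231 is a claudin-low, triple-negative human breast cancer cell line (parental, Par). LM2 and BrM2 were selected from it in vivo for their capacity to colonize the lung and the brain of mice, and all lines were grown in monolayer in serum-containing medium without any further treatment. ChIP-seq of H3K4me3 and of H3K27ac was performed with 2 replicates per line and mark, giving 12 libraries. The values are reads counted in consensus peaks that were called on libraries merged across the lines.

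Many human genes lie head to head, with starts a short distance apart on opposite strands, so that both genes share the DNA between them as a promoter. Such promoters are usually rich in CpG dinucleotides, and pairs of housekeeping genes in DNA repair, the cell cycle and mitochondrial function are well known among them. H3K4me3 marks the nucleosomes flanking active starts and H3K27ac marks active promoters and enhancers. A ChIP-seq peak over such a promoter measures both sides together, and reads cannot be assigned to either gene of a pair.

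For each peak, 1 start per gene was taken (that of the canonical transcript where it lies in the peak) and 1 pair of genes was formed. The canonical starts of both genes lay in the peak in 802 of the 1316 promoters, whereas the other 514 rested on an alternative transcript of at least 1 gene. In 1074 promoters the minus-strand start lay before the plus-strand start, which is the head-to-head arrangement, and 1042 of these starts were at most 1000 bp apart. In the other 242 the starts overlapped, with the plus-strand gene beginning first. Among the promoters with canonical starts of both genes, the median distance was 215 bp and the quartiles were 102 and 378 bp.

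**Figure D1:**
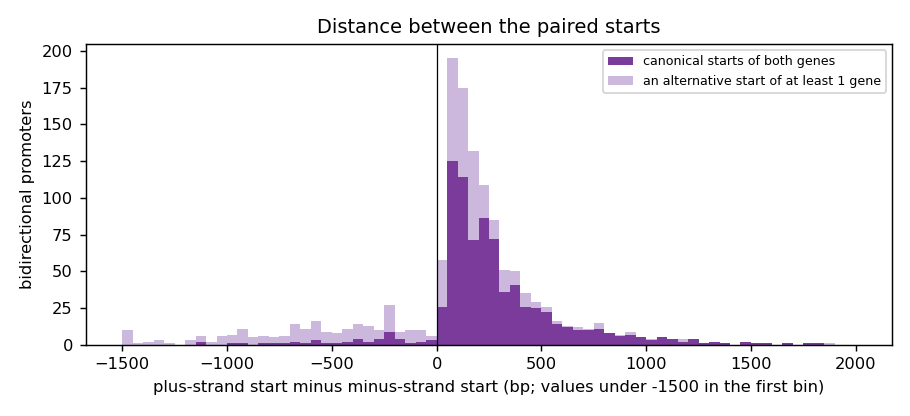
Histogram of the distance between the paired starts (bp, x axis) over the 1316 bidirectional promoters (y axis, number of promoters), with positive values for head-to-head pairs and stacked colours for pairs with canonical or alternative starts. Most promoters sit in a narrow range above 0, and alternative starts make up most of the overlapping pairs.

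The DNA between paired starts is shown for promoters whose H3K4me3 or H3K27ac differed between the lines, and for textbook head-to-head pairs. Each stretch is the longest run between the paired starts that no annotated exon covers, on the plus strand of GRCh37 (hg19), with the minus-strand gene to the left and the plus-strand gene to the right. Capitals mark matches, on either strand, to the letters searched, which were the TATA box (TATAAA), the CCAAT box (CCAAT), the GC box bound by SP1 (GGGCGG), the ETS site (CCGGAAG), the YY1 site (AAGATGGC), the NRF1 motif (GCATGCGC) and a heat shock element (GAANNTTC, where N is any base). Matches may overlap one another.
HSPA1L-HSPA1A, chr6:31783061-31783319: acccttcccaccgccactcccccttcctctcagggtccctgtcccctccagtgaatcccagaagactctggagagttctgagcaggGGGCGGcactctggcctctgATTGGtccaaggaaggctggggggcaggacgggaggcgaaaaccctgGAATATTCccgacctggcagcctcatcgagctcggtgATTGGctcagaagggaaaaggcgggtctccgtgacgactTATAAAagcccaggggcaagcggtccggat
TRAPPC2-OFD1, chrX:13752755-13752861: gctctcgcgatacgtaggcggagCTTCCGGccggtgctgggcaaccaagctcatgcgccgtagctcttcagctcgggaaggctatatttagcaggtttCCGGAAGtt
KYAT1-LRRC8A, chr9:131644316-131644411: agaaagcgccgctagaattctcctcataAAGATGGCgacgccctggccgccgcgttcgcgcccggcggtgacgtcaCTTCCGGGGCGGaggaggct
DNAJC30-BUD23, chr7:73097784-73097926: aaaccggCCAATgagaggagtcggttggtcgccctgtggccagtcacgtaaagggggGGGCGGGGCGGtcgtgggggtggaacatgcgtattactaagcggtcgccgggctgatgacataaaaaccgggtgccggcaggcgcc
HES2-ESPN, chr1:6484731-6484835: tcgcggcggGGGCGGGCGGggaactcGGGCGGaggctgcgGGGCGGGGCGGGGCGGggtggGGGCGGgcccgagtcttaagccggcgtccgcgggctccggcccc
BST2-MVB12A, chr19:17516440-17516494: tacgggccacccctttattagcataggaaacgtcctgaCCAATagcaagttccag
CAPN14-EHD3, chr2:31456725-31457017: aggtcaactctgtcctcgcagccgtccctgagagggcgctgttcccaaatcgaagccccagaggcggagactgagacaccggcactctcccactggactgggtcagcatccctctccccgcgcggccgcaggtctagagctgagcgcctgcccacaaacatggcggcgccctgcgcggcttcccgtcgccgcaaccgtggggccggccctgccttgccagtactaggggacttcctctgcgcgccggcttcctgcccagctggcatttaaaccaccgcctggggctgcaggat
SARS2-MRPS12, chr19:39421404-39421583: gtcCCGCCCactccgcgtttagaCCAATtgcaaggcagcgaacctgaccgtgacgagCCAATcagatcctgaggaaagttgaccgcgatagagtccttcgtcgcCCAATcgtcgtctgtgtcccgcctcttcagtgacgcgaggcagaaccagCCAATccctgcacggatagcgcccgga
COL4A1-COL4A2, chr13:110959505-110959604: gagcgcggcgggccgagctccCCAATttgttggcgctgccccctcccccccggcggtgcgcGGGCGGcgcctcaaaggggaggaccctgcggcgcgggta

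The stretches differed widely in composition. The one between HES2 and ESPN was 85.7% G and C and held 7 GC boxes. HSPA1L-HSPA1A, the promoter of the stress-inducible chaperone HSP70, was the only one shown with a TATA box and a heat shock element, and it also held 2 CCAAT boxes. The stretch between TRAPPC2 and OFD1 held 2 ETS sites, 1 near each gene. Between KYAT1 and LRRC8A an ETS site and a YY1 site were found. The BST2-MVB12A stretch was the poorest in G and C, at 49.1%, and had 2 CpG dinucleotides in 55 bases. SARS2-MRPS12 held 4 CCAAT boxes.

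Across all members, a window from 250 bp before to 50 bp after each start was compared with the same window at 9810 single-strand promoters, which are H3K4me3 peaks of the same length limit that overlap H3K27ac and hold protein-coding starts on 1 strand only. The ETS site was found in 27.2% of 2749 windows at bidirectional promoters and in 18.0% of 10186 windows at single-strand promoters. With canonical starts only, the shares were 30.0% and 19.4%. The TATA box was rarer, at 2.76% against 4.62%, and the YY1 site was found in 7.17% against 4.92%. A CpG observed to expected ratio of at least 0.6 was reached by 90.9% against 84.9% of windows, although the median GC content was 65.7% against 66.7%. The CCAAT box (36.4% against 33.8%), the NRF1 motif (7.02% against 5.37%), the GC box (73.1% against 74.1%) and the heat shock element (4.26% against 4.23%) were also counted. These shares are a description of the reference sequence without a test. The windows of paired genes overlap, so that a single site can be counted for both genes.

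Bidirectional promoters carried more H3K4me3 than single-strand promoters. Normalized counts here are read counts divided by the DESeq2 size factor of the library. The median normalized H3K4me3 count of the bidirectional promoters lay between 402 and 443 in the 6 libraries, and that of the single-strand promoters between 276 and 311. The mean ratio was 1.40 and the bidirectional promoters were higher in 6 of 6 libraries (exact permutation test with sign flips within libraries, two-sided p = 0.0312, the smallest that 6 libraries allow). They were also longer, with a median of 2673 bp against 2119 bp. Per kb of peak the ratio was 1.13, again with 6 of 6 libraries higher (exact permutation p = 0.0312). For the overlapping H3K27ac peaks the ratio of normalized counts was 1.18 (6 of 6 libraries, exact permutation p = 0.0312). Per kb of peak, H3K27ac was higher in 5 of 6 libraries with a ratio of 1.04, which did not pass (exact permutation p = 0.0625). The libraries of a line are not independent of each other in this test. All 6 libraries also measure the same peaks. Here p takes its smallest value whenever all 6 libraries differ in the same direction, whatever the size or spread of the difference. It does not test the difference between kinds of promoter.

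Levels within the set ranged from 8.72 to 513 normalized H3K4me3 counts per kb, with a median of 158 and quartiles of 116 and 214. The highest were CCDC92-ZNF664 on chromosome 12 (513 per kb), NKAIN4-ARFGAP1 on chromosome 20 (462 per kb) and EXD3-NOXA1 on chromosome 9 (447 per kb). ZNF664 encodes a zinc finger protein and ARFGAP1 a regulator of Golgi vesicle traffic. At the other end stood DNAJC17-C15orf62 (8.72 per kb), GON4L-SYT11 (19.3 per kb) and DUOXA1-DUOX1 (20.8 per kb). DUOX1 is a hydrogen peroxide producing oxidase and DUOXA1 its maturation factor. DUOXA1-DUOX1 had normalized counts of 7.35 and 13.1 in Par, 18.3 and 20.6 for LM2, and 33.0 and 39.2 for BrM2 (replicates 1 and 2). The BrM2 libraries were above both others, and the difference from Par passed only with the replicate block, a fit described below (log2 fold change 1.76 ± 0.69 SE, DESeq2 adjusted p = 0.186 without the block and 0.0338 with it).

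Among head-to-head promoters, H3K4me3 counts grew with the distance between the starts, and so did the length of the peak. A member peak has to hold both starts, so that a larger distance sets a larger minimum length. Promoters with starts 1 to 100 bp apart had a median length of 2368 bp and a median normalized H3K4me3 count of 373, against 3023 bp and 493 for distances over 300 and up to 1000 bp. Per kb the same groups had medians of 148 and 166. The 242 promoters with overlapping starts had a median of 159 per kb. The 35 members on chromosome X had a median of 84.3 per kb, against 160 for the 1281 on other chromosomes.

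The libraries held between 3489607 and 9839629 H3K4me3 reads in peaks, and between 1994996 and 6450028 H3K27ac reads. Bidirectional promoters took 10.2% to 11.2% of the H3K4me3 reads and 3.53% to 4.28% of the H3K27ac reads. Replicate 1 and replicate 2 of H3K4me3 differed in the same way in every line, which bears on every H3K4me3 test below: with the replicate number added to the fit as a block, many more peaks were called. Promoter peaks of VIM, CD44, ZEB1 and EGFR, which mark claudin-low cells, lay at percentiles 93.2 to 99.4 of all H3K4me3 peaks by count, whereas those of ESR1, PGR, CDH1 and the claudins CLDN3, CLDN4 and CLDN7 lay at percentiles 36.1 to 62.4. The latter genes also carried a peak, although a weaker one.

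With the lines as the only term of the fit, few bidirectional promoters changed. In LM2 against Par, 6 of 1316 were called in H3K4me3 (adjusted p under 0.05, DESeq2), 3 higher and 3 lower, or 0.456%, against 2.51% of all H3K4me3 peaks tested. In BrM2 against Par the test called 9, 7 higher and 2 lower, or 0.684% against 3.61% of all peaks. Between BrM2 and LM2 it called 5, all higher in BrM2, or 0.380% against 3.18%. With the replicate block the picture changed. It called 199 bidirectional promoters in LM2 against Par (15.1%, against 14.4% of all peaks), 247 in BrM2 against Par (18.8%, against 17.7%) and 322 in BrM2 against LM2 (24.5%, against 22.0%). The share was thus slightly above that of all peaks with the block. It was below that of the single-strand promoters in both fits, which was 2.39%, 2.76% and 2.28% without the block and 17.1%, 21.4% and 27.3% with it. In BrM2 against Par, the block with chromosome medians removed gave 13.4% of the bidirectional promoters against 14.7% of all peaks, and with total counts 16.6% against 16.7%. In the other comparisons the share stayed above that of all peaks. It was 12.1% against 11.6% and 14.7% against 13.2% in LM2 against Par. In BrM2 against LM2 it was 18.4% against 17.4% and 24.3% against 19.4%.

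**Figure D2:**
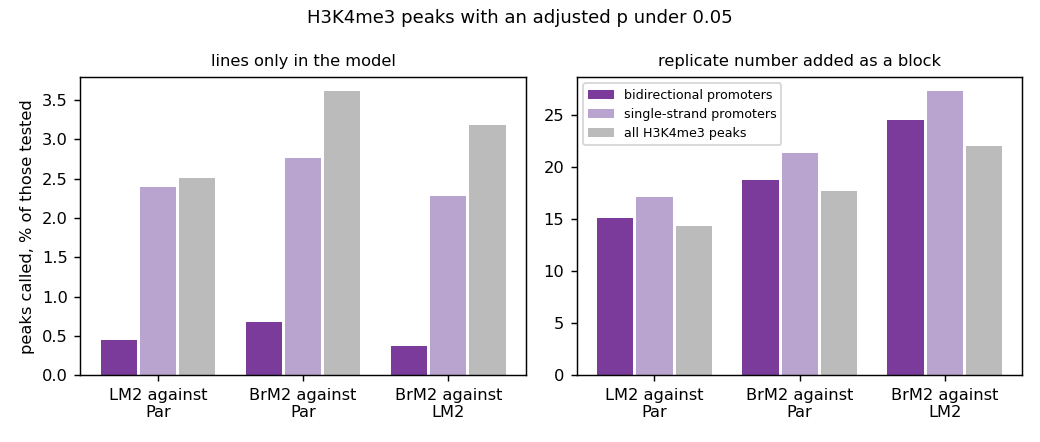
Share of H3K4me3 peaks called (adjusted p under 0.05, % of those tested, y axis starting at 0) in each comparison of lines, for bidirectional promoters, single-strand promoters and all peaks. Left, the fit with the lines only, where bidirectional promoters stay under 1%; right, the fit with the replicate block, where their share is close to that of all peaks.

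In the fit with the lines only, the changes were small. The median absolute log2 fold change of the bidirectional promoters was 0.19 in LM2 against Par, 0.19 in BrM2 against Par and 0.22 in BrM2 against LM2. For all H3K4me3 peaks the same values were 0.32, 0.35 and 0.37. A log2 fold change beyond 1 in either direction was reached by 1.75%, 1.67% and 1.06% of the bidirectional promoters, and by 6.20%, 6.43% and 5.93% of the single-strand promoters. Low counts move with this difference. Among the promoters whose mean count lay between the quartiles of the bidirectional set (284 to 603), 0.608%, 0.608% and 0.152% of 658 bidirectional promoters passed that size, against 1.65%, 1.96% and 1.30% of 3462 single-strand promoters. The median SD between replicates, on the log2 scale, was 0.23 and 0.29 in the same groups.

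The balance of directions depended on the scaling. The median log2 fold change was -0.07 in LM2 against Par, -0.08 in BrM2 against Par and -0.01 in BrM2 against LM2, beside 0.02, -0.02 and -0.04 over all peaks. With the replicate block, 37.2% of the calls in LM2 against Par were higher, as were 31.6% in BrM2 against Par and 47.8% in BrM2 against LM2. Over all H3K4me3 peaks the same fit gave 61.9%, 48.4% and 40.9%. Scaling by total counts within the block gave 30.6%, 43.4% and 69.4%, and removing chromosome medians gave 29.6%, 40.7% and 67.4%, so that the split between BrM2 and LM2 changed sides. Over all peaks these scalings gave 56.4%, 60.4% and 57.6%, and 58.0%, 57.8% and 55.3%. The split between BrM2 and LM2 thus changed sides there too.

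The promoters called in H3K4me3 without the block numbered 16 over the 3 comparisons, and all of their calls were also made with the block. They were not typical of the set. Their median normalized count was 183, and 14 of the 16 lay under the median of all bidirectional promoters. Canonical starts of both genes lay in 6 of them, or 37.5%, compared with 60.9% of the whole set. The other 10 rested on an alternative start of at least 1 gene. They were HES2-ESPN, AGBL4-ELAVL4, PYY-NAGS, ERFL-ARHGEF1, SUMF1-LRRN1, NRG4-TMEM266, ADAMTS7-MORF4L1, JPH1-GDAP1, CAPN14-EHD3 and BST2-MVB12A. The paired starts overlapped in 4 of the 16, at ADAMTS7-MORF4L1, JPH1-GDAP1, SUMF1-LRRN1 and PUDP-STS.

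**Figure D3:**
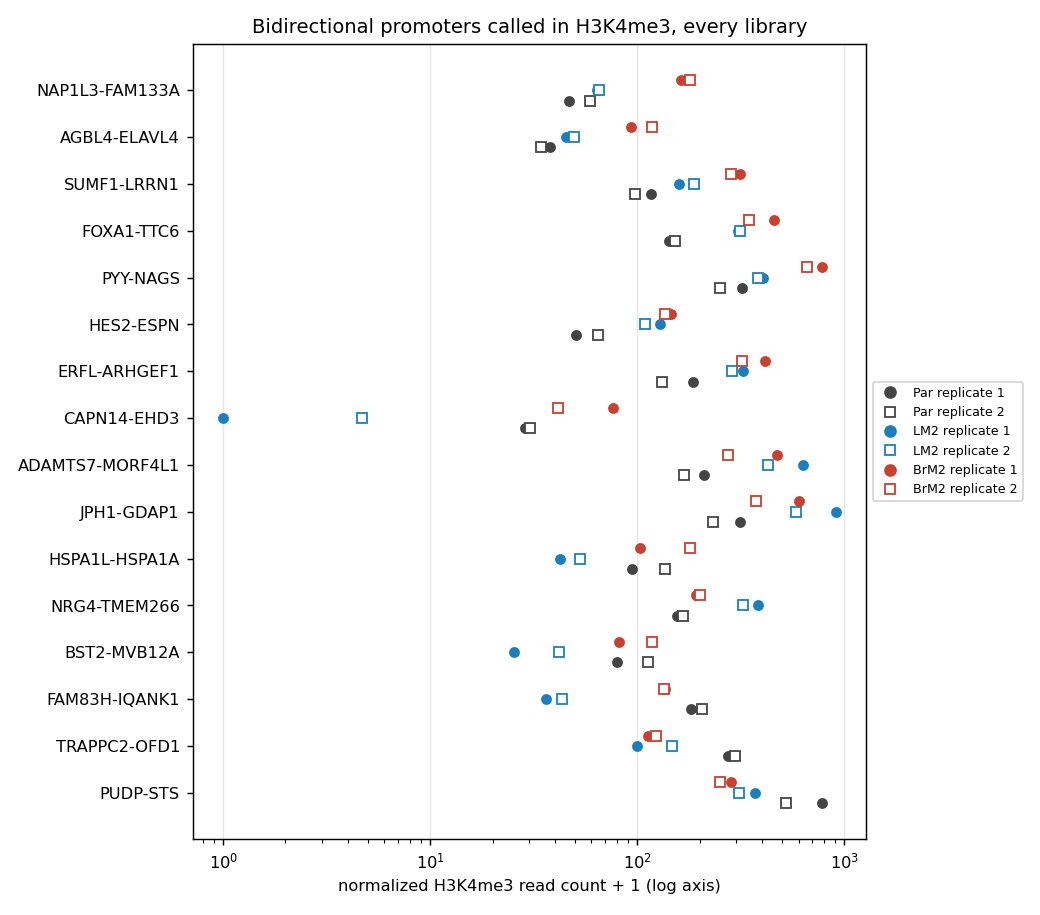
Normalized H3K4me3 read count plus 1 (x axis, log scale) in every library for the 16 bidirectional promoters called in any comparison, ordered by the log2 fold change of BrM2 against Par, with colours for the lines, filled circles for replicate 1 and open squares for replicate 2. The CAPN14-EHD3 counts in LM2 stand furthest to the left, and the X-linked PUDP-STS and TRAPPC2-OFD1 are highest in Par.

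Of the 9 promoters called in BrM2 against Par, 7 were higher in BrM2. FOXA1 encodes a pioneer transcription factor of luminal breast cells and lies head to head with TTC6 (chr14:38063340-38065750, starts 380 bp apart). Its promoter had normalized H3K4me3 counts of 141 and 151 in Par, 306 and 313 for LM2, and 456 and 345 for BrM2. All BrM2 libraries were above all Par libraries, with LM2 between them (BrM2 against Par, log2 fold change 1.45 ± 0.34 SE, DESeq2 adjusted p = 0.00153). In LM2 against Par the value was 1.08 ± 0.34, which missed the threshold (adjusted p = 0.0609) and passed it with the block (adjusted p = 2.44e-06).

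ELAVL4, an RNA-binding protein of neurons, and AGBL4, a carboxypeptidase that acts on glutamylated tubulin, share a peak at chr1:50489118-50490012. It had 36.7 and 33.1 normalized counts in Par, 44.2 and 48.7 for LM2, and 92.3 and 116 for BrM2. The Par and LM2 libraries lay close together and the BrM2 libraries well above them (BrM2 against Par, 1.59 ± 0.47, adjusted p = 0.0224). LRRN1, a leucine-rich repeat protein of neurons, shares a peak with an alternative start of SUMF1, which activates sulfatases (chr3:3840257-3842983). The counts were 116 and 96.3 in Par, 159 and 186 for LM2, and 311 and 283 for BrM2. Here too the lines did not overlap (BrM2 against Par, 1.496 ± 0.36, adjusted p = 0.00182).

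NAP1L3-FAM133A on chromosome X (chrX:92927437-92929483) holds NAP1L3, a member of the nucleosome assembly protein family. It had 45.9 and 57.8 normalized counts in Par, 62.5 and 64.6 for LM2, and 161 and 179 for BrM2. BrM2 stood apart from both other lines, with a log2 fold change of 1.70 ± 0.41 against Par (DESeq2 adjusted p = 0.00236) and 1.42 ± 0.40 against LM2 (adjusted p = 0.0168). Only 2 other H3K4me3 peaks with a mean count of at least 50 lay within 5 Mb, and their median in BrM2 against Par was 1.66.

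The lowest of the gains in BrM2 against Par were those of ERFL-ARHGEF1 and HES2-ESPN. ARHGEF1 is an activator of the GTPase RhoA, and its peak (chr19:42431659-42433561) had 184 and 130 normalized counts in Par, 323 and 285 for LM2, and 413 and 318 for BrM2. Both sub-populations were above Par and their own counts overlapped (BrM2 against Par, 1.23 ± 0.36, DESeq2 adjusted p = 0.0201). ESPN bundles actin in microvilli and stereocilia, and HES2 is a basic helix-loop-helix repressor. Their GC box rich promoter (chr1:6483578-6485609) had 49.6 and 63.2 counts in Par, 128 and 108 for LM2, and 145 and 135 for BrM2, again with Par lowest (1.29 ± 0.41, adjusted p = 0.0432). The ninth call, PYY-NAGS, fell outside the rule for naming members and is given because its values were seen. NAGS makes the activator of the urea cycle, and the peak had 320 and 250 counts in Par, 403 and 383 for LM2, and 779 and 657 for BrM2 (1.34 ± 0.32, adjusted p = 0.00204).

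The 2 promoters that lost H3K4me3 in BrM2 against Par both lie on the short arm of chromosome X. STS encodes steroid sulfatase and PUDP a pseudouridine phosphatase, and their starts overlap in a peak at chrX:7065088-7066860. The normalized counts were 781 and 520 in Par, 371 and 307 for LM2, and 281 and 250 for BrM2. Par was highest and the lines did not overlap (BrM2 against Par, log2 fold change -1.29 ± 0.34 SE, DESeq2 adjusted p = 0.00772). OFD1 is a protein of centrioles and cilia and TRAPPC2 a subunit of a vesicle tethering complex. Their promoter with the paired ETS sites (chrX:13751592-13753667) had 274 and 296 counts in Par, 99.1 and 146 for LM2, and 112 and 122.6 for BrM2. It was called lower in both sub-populations (LM2 -1.20 ± 0.37, adjusted p = 0.0448, and BrM2 -1.28 ± 0.37, adjusted p = 0.0192).

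These changes moved with their surroundings. Within 5 Mb of PUDP-STS, 16 other H3K4me3 peaks had a median log2 fold change of -1.01 in BrM2 against Par. Around TRAPPC2-OFD1, 25 peaks had medians of -1.02 in BrM2 and -0.70 in LM2 against Par. The set has 5 members in the first 25 Mb of chromosome X, a limit chosen after the values were seen, and the others are GPR143-SHROOM2, FANCB-MOSPD2 and APOO-CXorf58. Their H3K4me3 log2 fold changes in BrM2 against Par ranged from -1.29 to -0.51 over the 5 promoters, with a median of -1.09. FANCB, a Fanconi anaemia DNA repair protein, had 169 and 247 counts in Par, 90.0 and 139 for LM2, and 81.7 and 122.6 for BrM2 (BrM2 against Par, -1.02 ± 0.42, DESeq2 adjusted p = 0.217, and 0.000411 with the block). The block also called it lower in LM2 against Par (adjusted p = 0.00506). When chromosome medians were removed, the calls of PUDP-STS and TRAPPC2-OFD1 were lost, with log2 fold changes of -0.95 and -0.94 and adjusted p = 0.0711 and 0.146. The part of DNA copy number in these values was not tested.

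Gains in LM2 against Par were called at 3 promoters. NRG4, a ligand of the receptor ERBB4, and TMEM266, a voltage-sensing membrane protein, share a peak at chr15:76351248-76352807. It had 154 and 166 normalized H3K4me3 counts in Par, 381 and 323 for LM2, and 191 and 199 for BrM2. LM2 was above both other lines (LM2 against Par, 1.13 ± 0.34, DESeq2 adjusted p = 0.0352). On the same chromosome, the peak of the chromatin reader MORF4L1 and the metalloprotease ADAMTS7 (chr15:79102427-79104407) had 209 and 166 counts in Par, 627 and 425 for LM2, and 472 and 273 for BrM2 (1.49 ± 0.39, adjusted p = 0.00826). Peaks within 5 Mb of these promoters had medians of 0.34 and 0.36. GDAP1, a protein of the outer mitochondrial membrane, and JPH1, a junctophilin, on chromosome 8 had 310 and 231 counts in Par, 906 and 586 for LM2, and 601 and 372 for BrM2 (1.46 ± 0.38, adjusted p = 0.00762). The 20 other H3K4me3 peaks within 5 Mb had a median of 0.38 in LM2 against Par.

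The other 2 losses in LM2 were at FAM83H-IQANK1 and CAPN14-EHD3. FAM83H-IQANK1 on chromosome 8 holds the canonical starts of FAM83H, a keratin-associated protein, and IQANK1, 360 bp apart. The normalized H3K4me3 counts were 180 and 203 in Par, 35.1 and 42.4 for LM2, and 134 and 133 for BrM2. LM2 alone was low, with a log2 fold change of -2.29 ± 0.40 SE against Par (DESeq2 adjusted p = 3.21e-06), and BrM2 was higher than LM2 by 1.77 ± 0.40 (adjusted p = 0.000757). The median of 75 peaks within 5 Mb was -0.01 in LM2 against Par. CAPN14-EHD3 (chr2:31456582-31457549) holds starts of CAPN14, a calpain protease, and EHD3, an ATPase of endocytic recycling, of which at least 1 is alternative. It had 27.6 and 29.3 counts in Par, 0.00 and 3.71 for LM2, and 75.1 and 40.5 for BrM2. The LM2 libraries held 0 and 7 reads, so that the fitted values of -3.51 ± 0.86 (LM2 against Par, adjusted p = 0.00371) and 4.52 ± 0.84 (BrM2 against LM2, adjusted p = 1.31e-05) rest on very few reads. Leaving out 1 library at a time moved the latter between 3.94 and 7.68.

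Between the sub-populations, the other 2 calls were the promoters HSPA1L-HSPA1A and BST2-MVB12A. HSPA1A encodes the inducible HSP70 and HSPA1L a related chaperone of the testis (chr6:31781747-31783575). Their promoter had 93.7 and 135 normalized H3K4me3 counts in Par, 41.2 and 51.9 for LM2, and 102 and 179 for BrM2. LM2 was the lowest line (BrM2 against LM2, 1.59 ± 0.45, DESeq2 adjusted p = 0.0176). The neighbouring HSPA1B is nearly identical to HSPA1A in sequence, so that the counts of this peak are uncertain. BST2 encodes tetherin, an interferon-induced protein that holds virus particles at the cell surface, and MVB12A a subunit of ESCRT-I (chr19:17514332-17517693). The counts were 79.0 and 111 in Par, 24.4 and 40.8 for LM2, and 80.4 and 117 for BrM2, with LM2 again below both other lines (BrM2 against LM2, 1.56 ± 0.48, adjusted p = 0.0361).

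Few of these calls held when 1 library at a time was left out. The loss of FAM83H-IQANK1 in LM2 against Par and the difference of CAPN14-EHD3 between BrM2 and LM2 were called in all 6 such fits. The calls of NRG4-TMEM266, HES2-ESPN and BST2-MVB12A, and that of TRAPPC2-OFD1 in LM2 against Par, were made in none of them, although the signs were kept. Without BrM2 replicate 1 no member was called in H3K4me3 in BrM2 against Par, and without Par replicate 2 only 1 was. In LM2 against Par, 1 call each was left without Par replicate 2 and without LM2 replicate 1, and between BrM2 and LM2 1 was left without BrM2 replicate 2. In H3K27ac, 0 calls in BrM2 against Par were left without BrM2 replicate 1 and 1 without BrM2 replicate 2, and the single call between BrM2 and LM2 was made in none of the 6 fits.

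H3K27ac was read from the peak with the most shared bases, whereas the coordinates given with a promoter are those of its H3K4me3 peak. A median of 90.5% of each bidirectional promoter was covered by H3K27ac, 1305 of the promoters overlapped 1 H3K27ac peak and 11 overlapped 2. In LM2 against Par, 6 of 1309 tested were called, 2 higher and 4 lower, or 0.458% against 3.63% of all H3K27ac peaks. In BrM2 against Par 8 were called, 3 higher and 5 lower, or 0.610% against 5.29%, and between BrM2 and LM2 1 was called, or 0.0765% against 2.94%. With the replicate block the counts were 15 (1.15%, against 5.44% of all peaks), 29 (2.22%, against 8.13%) and 19 (1.46%, against 6.17%). In H3K27ac the share of bidirectional promoters called was thus below that of all peaks in both fits. Most H3K27ac peaks are not promoters and have fewer reads, with a median normalized count of 23.5 over all peaks against 93.3 at bidirectional promoters. At the single-strand promoters, with a median of 79.6, the shares called were 1.30%, 2.56% and 1.37% without the block. With it they were 2.75%, 5.39% and 3.86%, so that bidirectional promoters were below these as well.

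**Figure D4:**
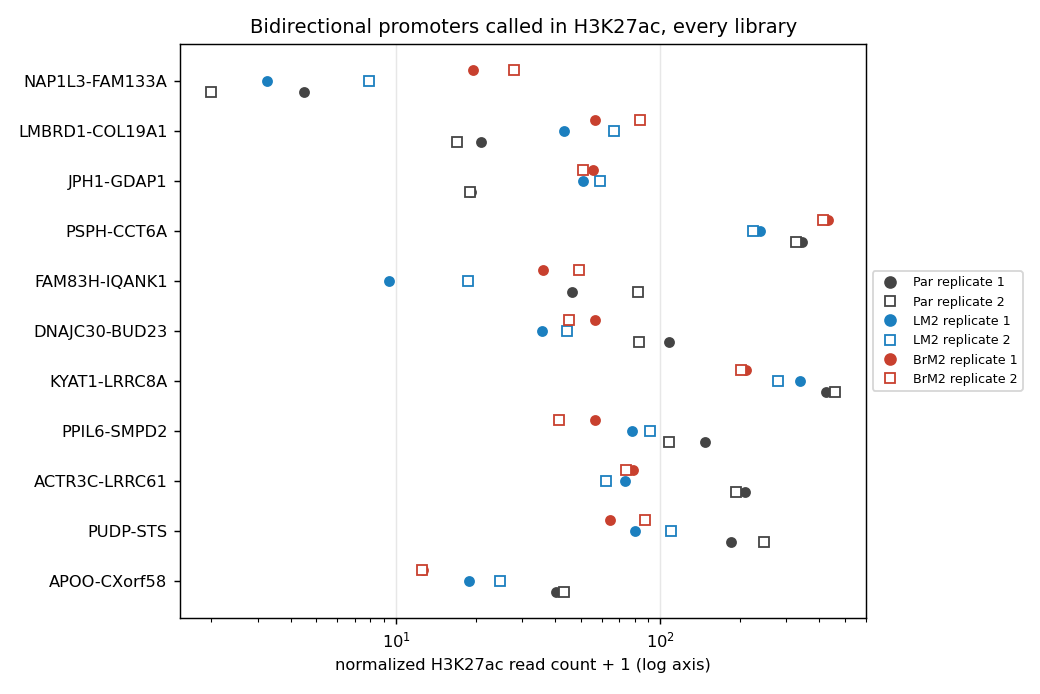
Normalized H3K27ac read count plus 1 (x axis, log scale) in every library for the 11 bidirectional promoters called in H3K27ac, with colours and symbols for lines and replicates, ordered by the log2 fold change of BrM2 against Par. NAP1L3-FAM133A, at the top, has under 7 normalized counts in all Par and LM2 libraries, and the promoters at the bottom are highest in Par.

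The 11 promoters called in H3K27ac overlapped the H3K4me3 calls in part. FAM83H-IQANK1 and JPH1-GDAP1 were called with both marks in LM2 against Par, and PUDP-STS and NAP1L3-FAM133A in BrM2 against Par, each in the same direction. FAM83H-IQANK1 had 45.3 and 81.1 normalized H3K27ac counts in Par, 8.41 and 17.7 for LM2, and 35.1 and 48.2 for BrM2 (LM2 against Par, -2.32 ± 0.53, DESeq2 adjusted p = 0.00117). NAP1L3-FAM133A had 3.48 and 1.00 in Par, 2.24 and 6.90 for LM2, and 18.5 and 26.99 for BrM2 (BrM2 against Par, 3.29 ± 1.01, adjusted p = 0.0271), with 4 and 1 reads in the Par libraries. PUDP-STS fell with this mark too, with log2 fold changes of -1.20 ± 0.34 in LM2 (adjusted p = 0.0157) and -1.54 ± 0.35 in BrM2 (adjusted p = 0.00101). Of the H3K4me3 calls, H3K27ac had the same sign in 6 of 6 in LM2 against Par, in 9 of 9 in BrM2 against Par and in 5 of 5 in BrM2 against LM2. The share of all members with the same sign was not counted. Some of these signs rest on very few H3K27ac reads. SUMF1-LRRN1 had 2 to 6 reads per library in a peak of 201 bp, and CAPN14-EHD3 had 1 to 28. Neither received an adjusted p in H3K27ac.

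Without the block, 7 other promoters were called in H3K27ac and not in H3K4me3. With the block, H3K4me3 was called in the same direction at ACTR3C-LRRC61 (LM2 against Par, -1.04, DESeq2 adjusted p = 2.36e-05), DNAJC30-BUD23 (LM2 against Par, adjusted p = 0.00775), KYAT1-LRRC8A (BrM2 against Par, adjusted p = 1.15e-07), APOO-CXorf58 (BrM2 against Par, adjusted p = 0.000918), LMBRD1-COL19A1 (LM2 against Par, adjusted p = 0.000605) and PSPH-CCT6A (BrM2 against LM2, adjusted p = 1.02e-05). PPIL6-SMPD2 was not called in H3K4me3 in BrM2 against Par in either fit. ACTR3C-LRRC61 on chromosome 7 (chr7:150019588-150022187), where ACTR3C is related to the actin-nucleating protein Arp3, had 207 and 192 normalized H3K27ac counts in Par, 72.4 and 61.1 for LM2, and 78.0 and 73.3 for BrM2. Both sub-populations were far below Par (LM2 -1.58 ± 0.32, DESeq2 adjusted p = 0.000155, and BrM2 -1.40 ± 0.33, adjusted p = 0.0016), and the loss in LM2 was called in all 6 fits that left out a library. DNAJC30-BUD23 on the same chromosome (chr7:73095619-73099152) holds BUD23, a methyltransferase of ribosomal RNA. It had 107 and 82.1 counts in Par, 34.8 and 43.4 for LM2, and 55.6 and 44.3 for BrM2 (LM2 against Par, -1.29 ± 0.39, adjusted p = 0.0335). The medians of H3K27ac peaks within 5 Mb were -0.46 and -0.50 in LM2 against Par at these promoters.

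SMPD2 encodes a sphingomyelinase, and its promoter with PPIL6 (chr6:109760401-109763107) had 147 and 107 normalized H3K27ac counts in Par, 76.9 and 90.7 for LM2, and 55.6 and 40.5 for BrM2 (BrM2 against Par, -1.38 ± 0.38, DESeq2 adjusted p = 0.0109). H3K4me3 at the same promoter differed by 0.03 ± 0.41 on the log2 scale. LRRC8A, the essential subunit of the volume-regulated anion channel, shares its promoter with the aminotransferase KYAT1 (chr9:131642853-131646513). The H3K27ac peak read for this promoter is 11426 bp long, against 3661 bp of the H3K4me3 peak, so that reads beyond the promoter were counted. That H3K27ac peak had 422 and 458 counts in Par, 335 and 279 for LM2, and 211 and 200 for BrM2 (BrM2 against Par, -1.09 ± 0.27, adjusted p = 0.00306), beside a median of -0.57 over 172 peaks within 5 Mb. APOO-CXorf58, which holds a gene of the mitochondrial MICOS complex, is another promoter of the short arm of chromosome X. It had 39.2 and 42.1 counts in Par, 18.0 and 23.7 for LM2, and 11.7 and 11.6 for BrM2 (BrM2 against Par, -1.80 ± 0.60, adjusted p = 0.0499).

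Gains of H3K27ac were called at LMBRD1-COL19A1 and JPH1-GDAP1. Both rested on an alternative start of at least 1 gene, and the paired starts overlapped. COL19A1 encodes a collagen and LMBRD1 a lysosomal cobalamin transporter (chr6:70576171-70577918). The H3K27ac counts were 20.04 and 16.0 in Par, 42.1 and 66.0 for LM2, and 55.6 and 82.9 for BrM2, so that both sub-populations were above Par (LM2 1.57 ± 0.48, DESeq2 adjusted p = 0.0341, and BrM2 1.92 ± 0.49, adjusted p = 0.00388). JPH1-GDAP1 had 18.3 and 18.0 in Par, 49.9 and 58.2 for LM2, and 54.6 and 50.1 for BrM2 (LM2 1.57 ± 0.46, adjusted p = 0.025, and BrM2 1.53 ± 0.48, adjusted p = 0.0295). The single call between BrM2 and LM2 was PSPH-CCT6A (chr7:56117674-56121393), which joins an enzyme of serine synthesis and a subunit of the TRiC chaperonin. It had 342 and 325 counts in Par, 238 and 223 for LM2, and 429 and 413 for BrM2, or 0.87 ± 0.26 between BrM2 and LM2 (adjusted p = 0.0345), and 23 H3K27ac peaks within 5 Mb had a median of 0.78. Both genes have related pseudogenes, to which reads may map.

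Over the 35 calls of both marks and 3 comparisons, the median of the peaks within 5 Mb reached at least 50% of the log2 fold change in 10, of which 8 were on chromosome X. In 20 calls it was under 25%. FAM83H-IQANK1, CAPN14-EHD3, FOXA1-TTC6, SUMF1-LRRN1 and LMBRD1-COL19A1 were among the latter.

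**Figure D5:**
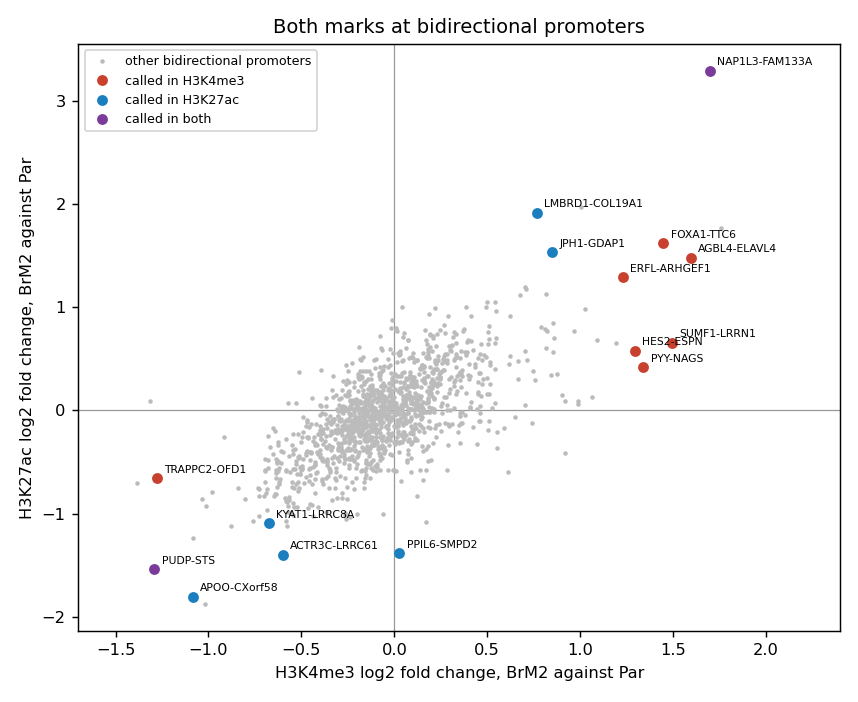
Log2 fold change in BrM2 against Par of H3K4me3 (x axis) and of the overlapping H3K27ac peak (y axis) for the 1316 bidirectional promoters, with those called in either mark coloured and named. The values of both marks rise together, and PPIL6-SMPD2 is lower in H3K27ac at an H3K4me3 value near 0.

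The marks varied together over the set. Across the 1316 promoters, Pearson's r between the log2 fold changes of H3K4me3 and H3K27ac was 0.51 in LM2 against Par, 0.69 in BrM2 against Par and 0.68 in BrM2 against LM2 (Spearman's rho 0.36, 0.64 and 0.64). Promoters are not independent replicates, and neighbouring ones share regional levels, so these values are a description. The comparisons with Par share the same Par libraries.

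Textbook head-to-head pairs were taken from a list of genes. It met 19 members, of which 15 held both genes of a pair. None of the 19 was called in H3K4me3 by DESeq2 or by edgeR in any comparison, and at an unadjusted p under 0.05 there were 0 in both comparisons with Par and 1 in BrM2 against LM2. The median log2 fold changes were 0.08, -0.02 and -0.06. With the replicate block, 3, 2 and 5 were called, or 15.8%, 10.5% and 26.3%, against 14.4%, 17.7% and 22.0% of all peaks.

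The mitochondrial seryl-tRNA synthetase SARS2 and the ribosomal protein MRPS12 share a promoter that had 294 and 314 normalized H3K4me3 counts in Par, 264 and 340 for LM2, and 352 and 373 for BrM2. Without the block, all fitted H3K4me3 differences lay within 1 SE. With the block, the values were 0.25 ± 0.17 in BrM2 against Par and 0.26 ± 0.17 in BrM2 against LM2, and none was called. COL4A1 and COL4A2 encode the chains of basement membrane collagen IV. Their promoter had 898 and 582 counts in Par, 1523 and 972 for LM2, and 987 and 569 for BrM2. LM2 was above both other lines within each replicate number, which was not called without the block (LM2 against Par, 0.75 ± 0.39, DESeq2 adjusted p = 0.589) and was called with it (adjusted p = 3.27e-10). The H3K4me3 peaks within 5 Mb had a median of 0.46.

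MUTYH-TOE1, with the base excision repair glycosylase MUTYH, had 430 and 456 normalized H3K4me3 counts in Par, 320 and 390 for LM2, and 506 and 590 for BrM2, and was called higher in BrM2 than in LM2 only with the block (0.62 ± 0.32 without it, DESeq2 adjusted p = 0.455, and adjusted p = 0.000189 with it). OSGEP-APEX1, with the repair endonuclease APEX1, was lower in LM2 than in Par with the block (-0.51 ± 0.35 without it, adjusted p = 0.921, and 0.0169 with it), beside a median of -0.47 over the H3K4me3 peaks within 5 Mb. SURF1-SURF2, where SURF1 assembles cytochrome c oxidase, was lower in BrM2 than in Par with the block (-0.46 ± 0.35, adjusted p = 0.819 without it and 0.00721 with it), beside a nearby median of -0.47. TAP1-PSMB9, ERCC8-NDUFAF2, SIRT3-PSMD13, TRMT2A-RANBP1, PURG-WRN and PRKDC-MCM4 were not called in either fit in any comparison.

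Function groups that are common among bidirectional promoters were counted as 11 lists, which together met 310 members. In LM2 and in BrM2 against Par, 0 of the 310 were called in H3K4me3 by DESeq2 or by edgeR, with 9 and 12 at an unadjusted p under 0.05. Between BrM2 and LM2, 1 was called (HSPA1L-HSPA1A). With the replicate block, 48 were called in LM2 against Par, 7 higher and 41 lower, or 15.5%, and 53 in BrM2 against Par, 13 higher and 40 lower, or 17.1%. These shares were close to the 14.4% and 17.7% of all peaks. Between BrM2 and LM2 the block called 70, 39 higher and 31 lower, or 22.6% against 22.0% of all peaks. The shares of single lists below are to be read against the same values of all peaks.

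Against Par, the shares called for genes of energy metabolism were close to the 14.4% and 17.7% of all peaks. Of 43 members with genes of oxidative phosphorylation, 0 were called by DESeq2 or edgeR in either comparison with Par (1 and 3 at an unadjusted p under 0.05), and with the block 5 were lower in LM2 (11.6%) and 6 in BrM2 (14.0%), with 0 higher, while the calls of all members were also mostly lower in these comparisons. Their median H3K4me3 log2 fold changes were -0.15 and -0.14. Between BrM2 and LM2 the block called 5 higher and 7 lower (27.9%, against 22.0% of all peaks). NDUFB11-RBM10 on chromosome X, with a subunit of complex I, had 421 and 476 normalized counts in Par, 360 and 466 for LM2, and 200 and 254 for BrM2 (BrM2 against Par, -0.98 ± 0.34, DESeq2 adjusted p = 0.0839, and 7.05e-08 with the block), beside a median of -0.88 within 5 Mb. NDUFA8-MORN5, another complex I gene, had -0.84 ± 0.35 (adjusted p = 0.25, and 0.000592 with the block), beside -0.52. At the upper end, CEBPZ-NDUFAF7 had 0.28 ± 0.35 in BrM2 against Par.

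The mitochondrial ribosome met 30 members, of which the block called 2 higher and 6 lower in LM2 against Par (26.7%, against 14.4% of all peaks), with a median of -0.20. MRPL46-MRPS11, which joins subunits of the large and the small part of the mitochondrial ribosome, had 268 and 358 normalized counts in Par, 399 and 519 for LM2, and 220 and 304 for BrM2 (LM2 against Par, 0.55 ± 0.35, DESeq2 adjusted p = 0.847, and 0.00658 with the block), beside a median of 0.67 within 5 Mb. HELQ-MRPS18C had -0.61 ± 0.33 (adjusted p = 0.655, and 0.00732 with the block), beside -0.32. PSMA2-MRPL32, which joins a proteasome subunit and a mitochondrial ribosomal protein, had -0.65 ± 0.35 (adjusted p = 0.634, and 0.00125 with the block), beside -0.28.

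DNA repair genes were found in 44 members. With the block, 1 was higher and 4 lower in LM2 (11.4%), and 1 higher and 6 lower in BrM2 (15.9%), against Par. These shares were close to the 14.4% and 17.7% of all peaks. LIPT2-POLD3, with a subunit of DNA polymerase delta, had 950 and 445 normalized H3K4me3 counts in Par, 912 and 425 for LM2, and 595 and 300 for BrM2. The replicates differed by more than the lines (BrM2 against Par, -0.64 ± 0.47, DESeq2 adjusted p = 0.799, and 2.38e-05 with the block), and the median within 5 Mb was -0.36. LIG4-ABHD13, with DNA ligase IV, had 0.43 ± 0.44 in LM2 against Par (adjusted p = 1, and 0.00962 with the block), the same as the median of 0.43 over 23 peaks within 5 Mb.

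The 27 chaperone members had 0 higher and 7 lower in LM2 against Par with the block (25.9%, against 14.4% of all peaks), and 5 higher and 0 lower in BrM2 against LM2 (18.5%, against 22.0%). Apart from HSPA1L-HSPA1A, CCT6B-ZNF830, with a chaperonin subunit, had 366 and 400 normalized H3K4me3 counts in Par, 174 and 232 for LM2, and 336 and 339 for BrM2 (LM2 against Par, -0.91 ± 0.33, DESeq2 adjusted p = 0.166, and 1.46e-05 with the block), beside a median of -0.05 within 5 Mb. CCT4-COMMD1, with another subunit of TRiC, had 0.51 ± 0.31 in BrM2 against Par (adjusted p = 0.663, and 0.00662 with the block), beside 0.25. The 17 proteasome members had 1 higher and 5 lower in LM2 (35.3%). PSMA1-PDE3B stood at the upper end with 0.71 ± 0.43 (adjusted p = 0.789, and 2.76e-08 with the block, beside a nearby median of 0.03) and DNAJC2-PSMC2 at the lower end with -0.58 ± 0.32 (adjusted p = 0.688, and 0.0104 with the block, beside -0.38).

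Calls of the remaining lists are those with the block, against Par. The 22 members with genes of DNA replication and the cell cycle had 0 higher and 2 lower in LM2, and 1 each way in BrM2, or 9.09% in each. MCM7-AP4M1, with a subunit of the replicative helicase, had 779 and 815 normalized H3K4me3 counts in Par, 543 and 583 for LM2, and 479 and 626 for BrM2 (BrM2 against Par, -0.53 ± 0.31, DESeq2 adjusted p = 0.628, and 0.000735 with the block), beside a median of -0.48 within 5 Mb. The 51 zinc finger members had 1 higher and 6 lower in LM2 (13.7%), and 4 higher and 9 lower in BrM2 (25.5%, against 17.7% of all peaks). The 49 with ubiquitin ligases and related enzymes had 1 higher and 6 lower in LM2 (14.3%), and 3 higher and 6 lower in BrM2 (18.4%), among them PCID2-CUL4A, with a cullin, at 0.52 ± 0.43 in LM2 (adjusted p = 1, and 7.27e-07 with the block), beside a nearby median of 0.44. The 33 members for splicing and RNA polymerase subunits had 1 higher and 3 lower in LM2 (12.1%) and 0 higher and 3 lower in BrM2 (9.09%). The 9 members with tRNA synthetases had 1 lower in each. Of 2 members with replication histones, 1 was lower in LM2.

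At the length limit, the longest members were PRKDC-MCM4 (3995 bp) and AAK1-ANXA4 (3987 bp), and the shortest peaks just over it were ARMH4-ARID4A (4005 bp) and DEAF1-EPS8L2 (4007 bp). Their H3K4me3 log2 fold changes in BrM2 against Par were -0.05, 0.21, -0.15 and 0.44.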

How the data were processed

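ChIP-seq of H3K4me3 and H3K27ac was available for 12 libraries, 2 replicates per line and mark, and 3 input samples were left out, as were the peak lists without counts. The authors deposited raw read counts per consensus peak. Per the methods and the submitters' processing notes, reads were trimmed with Trimmomatic (0.32), aligned to hg19 with Bowtie2 (2.3.4.3), cleared of duplicates with Picard (2.18.21) and SAMtools, called as broad peaks with MACS2 (2.1.2) on merged libraries and counted with featureCounts (1.6.0). Peaks called on merged libraries favour regions shared by the lines.

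Transcript starts were taken from GENCODE release 44 lifted to GRCh37, in which coordinates are given. An overlap of 1 bp with an H3K27ac peak sufficed. The members and gene lists were chosen with earlier results of these data known. Counts of all peaks of a mark were fitted in DESeq2 (1.42.0, R 4.3.3) with the line as term (3 residual degrees of freedom), median-of-ratios size factors, independent filtering and Benjamini-Hochberg adjustment over all peaks tested. Calls have an adjusted p under 0.05. Errors are standard errors of unshrunken log2 fold changes.

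Replicate numbers come from the sample titles. Same-numbered libraries deviated together from the means of their lines in every pair of lines, with r of 0.79 to 0.84 in H3K4me3 and 0.41 to 0.61 in H3K27ac over peaks with a mean count of at least 50, so counts from a fit blocked on this number are given too. The methods call the replicates biological. What the numbers share is not given in the sources used here.

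Named promoters are all those called per mark and comparison (the 4 highest and 4 lowest without overlap between lines where more than 8 were called), textbook pairs, the 3 highest and 3 lowest per kb, those next to the length limit and up to 4 per function list. Alternatives were edgeR (4.0.16), total count scaling, a minimum count of 10, removal of chromosome medians, the replicate block, other definitions of the members, and leaving out each library. The fit was tested on simulated data of BrM2 against Par. In 22572 H3K4me3 peaks it recovered 32.0% of changes of 1 and 95.0% of changes of 2 on the log2 scale, and in 62195 H3K27ac peaks 13.0% and 73.0%. Some members are not reported here.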

Additional observations from a re-analysis of the deposited data

Results flagged for a closer look

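At 6 promoters the change from Par differed between LM2 and BrM2, as tested by the comparison of BrM2 with LM2 in DESeq2. The H3K4me3 log2 fold changes between BrM2 and LM2 were 4.52 at CAPN14-EHD3, 1.77 at FAM83H-IQANK1, 1.59 at HSPA1L-HSPA1A, 1.56 at BST2-MVB12A and 1.42 at NAP1L3-FAM133A. With 0 and 7 reads in LM2, the value of CAPN14-EHD3 ran from 3.94 to 7.68 when 1 library was left out. The first 4 were lowest in LM2, whereas NAP1L3-FAM133A was highest in BrM2. In H3K27ac the value was 0.87 at PSPH-CCT6A. The comparison of BrM2 with LM2 was called in all 6 fits that left out a library at CAPN14-EHD3, in 5 at FAM83H-IQANK1, in 3 at HSPA1L-HSPA1A, in 2 at NAP1L3-FAM133A and in 0 at BST2-MVB12A and PSPH-CCT6A.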

How the results depend on the processing

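The number of bidirectional promoters called depended most on the replicate block, the log2 fold changes of the 35 named calls kept their signs in each alternative that gave them a value, and the cause of the differences in counts was not tested. For H3K4me3 in LM2 against Par, BrM2 against Par and BrM2 against LM2, where 6, 9 and 5 were called, the replicate block gave 199, 247 and 322. Alternatives chosen after seeing the data gave 383, 459 and 550 (edgeR with the replicate block), 193, 219 and 320 (replicate block with total counts) and 159, 177 and 242 (replicate block with chromosome medians removed). The median H3K4me3 log2 fold change of the members in BrM2 against LM2 changed sign, from -0.01 to 0.08 with total counts, 0.05 with chromosome medians removed and 0.08 with the block and total counts. Over all peaks the median also changed sign, from -0.04 to 0.04 with total counts and 0.03 with chromosome medians removed. Without the block, edgeR called 3 and total counts 10 in LM2 against Par, and starts of basic transcripts only left 3 in BrM2 against LM2.

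For H3K27ac, where 6, 8 and 1 were called, the replicate block gave 15, 29 and 19, edgeR with the block 73, 136 and 108, and the block with total counts 11, 33 and 17. The block with chromosome medians removed gave 23 in BrM2 against Par and 7 in BrM2 against LM2. Without the block, edgeR called 18 and 9 in these comparisons, and total counts and a minimum count of 10 gave 2 each in BrM2 against LM2.

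Leaving out a library gave 1 to 4, 0 to 8 and 1 to 4 calls in H3K4me3 and 1 to 3, 0 to 5 and 0 to 0 in H3K27ac. In such a fit the lone library of a line is assumed to vary like the other lines. Of the 35 named calls, 30 were kept by edgeR, 31 with total counts, 35 with the replicate block and 24 with chromosome medians removed. That last alternative also ended the calls of NRG4-TMEM266, BST2-MVB12A, DNAJC30-BUD23, KYAT1-LRRC8A, APOO-CXorf58 and PSPH-CCT6A. Other definitions gave 1067 (basic transcripts), 1285 (at least 50% covered by H3K27ac), 884 (under 3000 bp) and 1199 (starts within 1000 bp) members. With 2 libraries per line, changes of 1 on the log2 scale were mostly missed in simulated data, at peaks with a mean count of at least 50.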
